A study of Homo sapiens and Mus musculus with 10 samples.

Results

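Of 19111 protein-coding genes on the 22 autosomes, 397 (2.08%) had accessible chromatin at a promoter in both libraries of HFF1, a human foreskin fibroblast line, and at none in the 6 libraries of GM12878, HEK293T and K562. The reverse pattern, open in all 6 of those libraries and in neither HFF1 library, was found at 61 genes (0.319%). Away from promoters, 46674 of 79559 HFF1 regions (58.7%) had no peak in the 6 other libraries. A promoter was called open where a deposited peak reached within 1 kb of any annotated start site of the gene, and a distal region was a stretch with a peak from both HFF1 libraries that touched no such window. The members were therefore chosen by the peaks themselves, and their counts are descriptions.

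The data are bulk ATAC-seq, in which the Tn5 transposase inserts adapters where DNA is free of nucleosomes, with 2 libraries from each line and 10 libraries in the series. GM12878 is a lymphoblastoid B-cell line, K562 an erythroleukaemia line, and HEK293T a line of embryonic kidney origin with the large T antigen of SV40. No line was treated or had an edited gene according to the labels. HFF1 and HEK293T were grown in DMEM and GM12878 and K562 in RPMI-1640, all with fetal bovine serum, and nuclei came from frozen cells. Nothing states whether the 2 libraries of a line came from separate cultures, so the spread between them may be technical. The p-values below compare the HFF1 libraries with those of the other lines and do not measure that spread. Each line stands for its tissue as a single established culture. In bulk libraries, a site open in fewer cells and a site less open in every cell cannot be told apart.

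Fibroblasts are the connective-tissue cells that build and remodel the extracellular matrix, chiefly collagens, proteoglycans and elastic fibres, and that contract and signal during wound repair. Their distal regulatory elements are known to be rich in sites for AP-1, the FOS and JUN dimer, and for TEAD factors, which act with the coactivators YAP and TAZ. Promoters with many CpG dinucleotides tend to be open in most tissues, while CpG-poor promoters tend to be open in few.

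The 8 stretches below are examples of HFF1-only distal regions, chosen in 3 ways. Each covers 50 bases to either side of the HFF1 summit on the forward strand of GRCh38, read 5′ to 3′. The first 4 were picked for holding AP-1 letters, which 19.1% of all HFF1-only distal regions do, and their nearest genes are among the 13 with most such regions. Those of PRRX1, COL3A1 and TWIST1 are the strongest regions nearest to the 3 fibroblast markers, and the last is the HFF1-only distal region with the highest fold in its weaker library. Capitals mark the AP-1 letters TGAGTCA on either strand, and in the last window the TEAD letters ACATTCC.
RND3 window, chr2:150663283-150663383: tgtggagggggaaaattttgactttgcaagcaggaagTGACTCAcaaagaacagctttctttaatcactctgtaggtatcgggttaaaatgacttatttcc
CDH11 window, chr16:64440599-64440699: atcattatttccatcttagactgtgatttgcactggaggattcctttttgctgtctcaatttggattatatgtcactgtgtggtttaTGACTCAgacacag
TNC window, chr9:115615911-115616011: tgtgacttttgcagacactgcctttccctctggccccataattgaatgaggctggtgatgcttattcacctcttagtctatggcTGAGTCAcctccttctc
USP24 window, chr1:55782003-55782103: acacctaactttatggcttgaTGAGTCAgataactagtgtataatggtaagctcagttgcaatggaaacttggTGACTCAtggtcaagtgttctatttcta
PRRX1 window, chr1:170623291-170623391: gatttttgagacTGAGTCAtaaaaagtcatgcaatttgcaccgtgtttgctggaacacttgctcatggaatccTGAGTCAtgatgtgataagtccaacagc
COL3A1 window, chr2:188853479-188853579: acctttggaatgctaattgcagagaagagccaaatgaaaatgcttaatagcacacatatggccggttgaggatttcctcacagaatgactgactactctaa
TWIST1 window, chr7:19061045-19061145: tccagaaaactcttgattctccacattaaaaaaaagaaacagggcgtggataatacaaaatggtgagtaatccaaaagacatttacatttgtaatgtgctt
OXSR1 window, chr3:38247519-38247619: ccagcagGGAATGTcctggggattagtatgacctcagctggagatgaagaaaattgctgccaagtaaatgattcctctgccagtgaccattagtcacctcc
The RND3 window lay between genes, 124322 bp from a start site of RND3, with folds of 17.0 and 18.0 in the 2 HFF1 libraries. Fold is the authors' own ratio of summit signal to local background in each list. Members were ordered by their lowest fold over the libraries concerned, and a difference in fold between lists shows no change. The USP24 and PRRX1 windows each held the AP-1 letters 2 times. The COL3A1 window, with folds of 14.7 and 16.1, and the TWIST1 window, with 12.8 and 10.8, held none of the 8 motifs searched. The OXSR1 window lay in the body of that gene, 10908 bp from its nearest start site, with folds of 20.1 and 19.7.

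Depth and peak number differed between the lines, and every count can depend on them. The background level, a per-library value recovered from the peaks and taken here as a measure of depth, was 2.43 and 2.06 reads in HFF1, 1.71 and 1.73 in GM12878, 0.465 and 0.466 in HEK293T and 2.21 and 1.97 in K562. HFF1 had 124544 and 117703 autosomal peaks, GM12878 98647 and 100631, K562 76251 and 69178, and HEK293T 50482 and 50183. K562 had a higher background level than GM12878 but fewer peaks, so peak number did not simply follow background level. A gene without a peak is one where no signal passed the authors' threshold at that depth, not one shown to be closed. For that reason the counts were repeated with the 50183 peaks of highest −log10 p from each library, and after the recovered pileups were thinned to the level of HEK293T.

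The labelled cell type was checked against 3 fibroblast markers. COL3A1, which encodes type III collagen (ENSG00000168542.17, GRCh38 chromosome 2, 188974373 to 189012746), had promoter folds of 3.61 and 3.32 in HFF1 and no promoter peak elsewhere. TWIST1, a mesenchymal transcription factor, had folds of 6.96 and 6.53 in HFF1, 10.3 and 11.5 in HEK293T, 3.54 and 4.05 in K562 and no peak in GM12878. PRRX1, a homeobox factor of limb and dermal mesenchyme, had folds of 5.98 and 4.81 in HFF1, 3.63 and 3.72 in GM12878, 5.18 in HEK293T replicate 2 and no peak in the other 3 libraries. All 3 markers were thus open in both HFF1 libraries, and only COL3A1 was open there alone. Of all genes, 77% were open in both HFF1 libraries, so these 3 open calls alone say little about cell type. HFF1-only regions made up 19 of the 23 HFF1 distal regions nearest to COL3A1, 8 of 9 nearest to TWIST1 and 13 of 17 nearest to PRRX1, against 58.7% of all HFF1 distal regions. These counts changed with the handling of depth and peak number. With equal peak numbers they were 10, 1 and 3, and after thinning to the shallowest library 10, 2 and 5.

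Markers of other cell types were read against all genes, of which 77% were open in both HFF1 libraries and 2.08% in HFF1 alone. Of 24 measured B-cell markers, 17 (70.8%) were open in both HFF1 libraries and none was open in HFF1 alone, while BLK, CD79A, CD79B and MS4A1 were open in GM12878 alone. Of 25 erythroid and myeloid markers, 9 (36%) were open in both HFF1 libraries, 1 was open in HFF1 alone, the globin gene HBA1, and 6 in K562 alone. HBA1 has a near-identical copy, HBA2, so the placement of its reads is uncertain. None of 22 kidney and epithelial or of 9 melanocyte markers was open in HFF1 alone, and of 15 keratinocyte markers only KRT5 was, with folds of 4.03 and 4.73. Counts of 0 or 1 HFF1-only genes in lists of this size are near the 2.08% of all genes and are no result about these cell types. Of the endothelial markers, 4 of 13 (30.8%) were open in HFF1 alone. They were TEK, the angiopoietin receptor (folds 5.13 and 4.35), EMCN (5.83 and 4.90), ROBO4 (4.69 and 4.64) and CLDN5, a tight-junction claudin (5.48 and 4.98). Of the 13, 10 and 9 were open in the HFF1 libraries and 3 or 4 in each of the 6 others. The defining endothelial genes CDH5 and VWF had no promoter peak in any of the 8 libraries. The 4 calls were not stable to the handling of depth and peak number, since 0 of the 13 markers were HFF1-only with equal numbers of peaks and 1 after thinning. The part of other cells in these results was not tested.

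HFF1 had more open promoters than the other lines with all deposited peaks. The 2 HFF1 libraries had 15052 and 14910 open genes, above the 14164 and 14199 of GM12878, the 13984 and 13785 of K562 and the 13453 and 13398 of HEK293T. The mean was 14981 ± 100.4 (SD, n = 2) in HFF1 and 13830.5 in the 6 others, a difference of 1150.5 genes. The groups did not overlap. The two-sided exact permutation test gave p = 0.0714, the smallest value that 28 assignments of 2 among 8 libraries allow, so this design cannot reach 0.05. The test treats the 2 libraries of a line as independent, whereas the comparison is of 1 line with 3 others. Any line with both libraries above or below all the rest would get the same p. The order did not hold at equal peak number, where HFF1 had 12964 and 12921 open genes and its mean lay below that of the others by a difference of -86 (exact permutation p = 0.714). After thinning HFF1 stayed above all 6 others, by 514.8 genes, with an exact permutation p of 0.0714.

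Read against the other lines, 397 HFF1-only genes was the highest of the 4 line-only counts with all peaks. GM12878 alone had 266 (1.39%), K562 alone 1.05% of genes and HEK293T alone 60 (0.314%). At equal peak number the HFF1 count was 221, the lowest of the 4, against 384 in HEK293T, 279 in K562 and 246 in GM12878, and 114 of those 221 genes belonged to the original 397. After thinning, HFF1 alone had 241 genes, of which 184 were original members, GM12878 289, HEK293T 188 and K562 135. The rank of HFF1 among the lines therefore changed with the handling of depth. The reverse count of 61 genes was likewise the lowest of the 4 lines with all peaks, against 242 for GM12878 (1.27%), 334 for K562 (1.75%) and 406 for HEK293T (2.12%). It was 237 (1.24% of genes) at equal peak number, 0.528% of genes after thinning, and 92 genes without HFF1 replicate 1, which only relaxes the rule. Distal regions behaved otherwise: HFF1 had the highest line-only count in each of the 3 treatments, 46674, 15807 and 20997, with GM12878 next at 31928, 13671 and 20459, so that the margin was small after thinning.

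**Figure D1:**
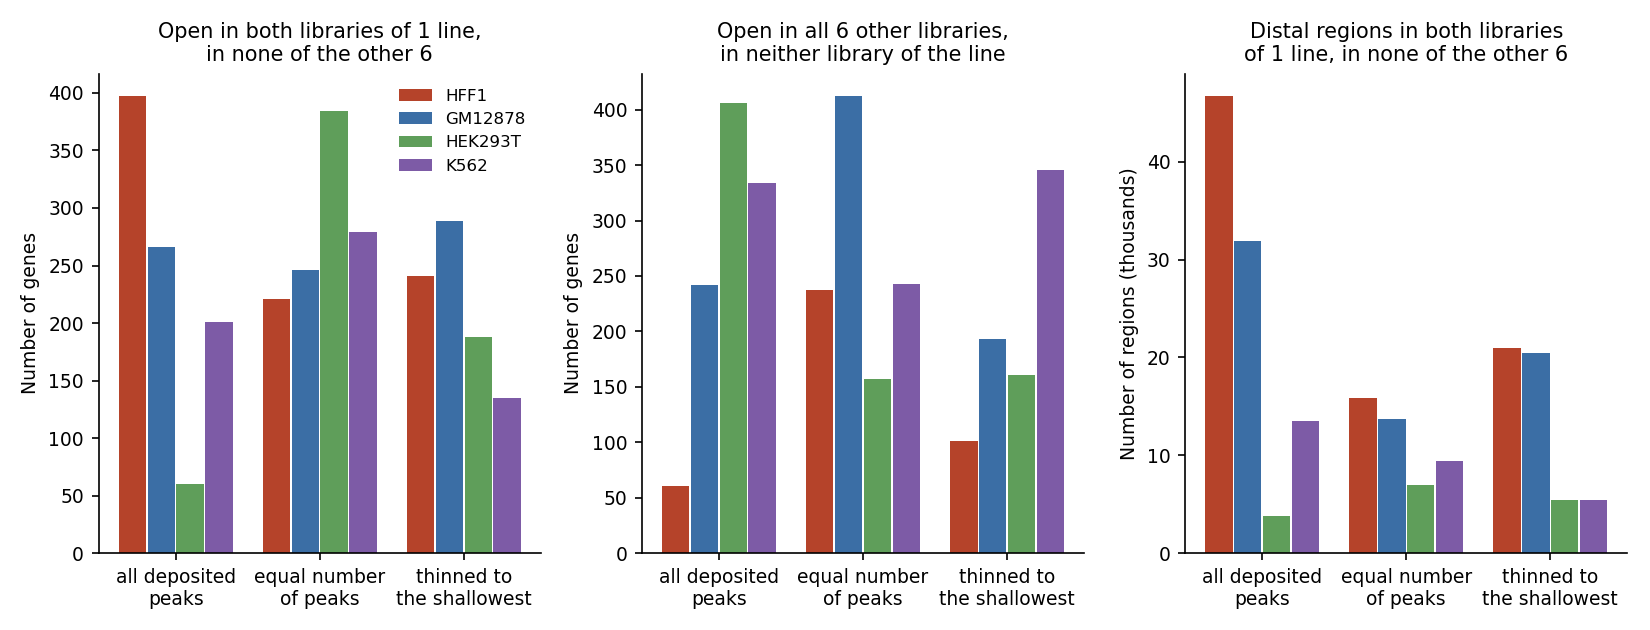
Bars give the number of genes or distal regions found in both libraries of 1 line and in none of the other 6 (left and right), or genes in all 6 others and in neither library of the line (middle), with all deposited peaks, with 50183 peaks per library and after thinning to the shallowest library. The HFF1 bar of line-only genes is highest with all peaks (397) and lowest with equal numbers (221), while its distal bar is highest in all 3.

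Members of the HFF1-only class were mostly modest peaks. The lower of the 2 HFF1 folds ranged from 2.49 to 15.8 with a median of 5.51, against 9.67 at the 11553 genes (60.5%) open in all 8 libraries. Just outside the rule, 178 genes were open in both HFF1 libraries and in exactly 1 of the 6 others, with a median fold of 4.87 in that other library, and 172 were open in 1 HFF1 library and in none of the 6. Members seldom shared a promoter, since the windows of 6 overlapped those of another member. For 338 of the 397 (85.1%) the peaks lay at the canonical start site, against 94.0% of all genes open in HFF1.

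Members were then sorted by function. The 10 lists of fibroblast biology held 310 measured genes, of which 298 (96.1%) were open in both HFF1 libraries, against 77% of all genes. Of the same 310 genes, 299 were open in each HFF1 library, 203 and 206 in GM12878, 232 and 233 in HEK293T, and 208 in each K562 library. Of these, 20 (6.45%) were open in HFF1 alone, against 2.08% of all genes, and none had the reverse pattern. The share held when depth was handled differently, at 6.13% against 1.16% of all genes with equal peak numbers and 5.81% against 1.26% after thinning. Of those 20 genes, 11 remained HFF1-only with equal numbers and 15 after thinning.

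Among 26 collagens, 25 were open in both HFF1 libraries and 2 (7.69%, against 2.08% of all genes) in HFF1 alone. Besides COL3A1 this was COL6A3, a chain of the beaded-filament type VI collagen, with folds of 6.18 and 6.0. COL3A1 was no longer HFF1-only with equal numbers, after thinning or with a window of 2 kb, whereas COL6A3 was in all 7 settings tried for single genes. Of 40 other matrix genes, 3 (7.5%) were HFF1-only: MFAP2, a microfibril glycoprotein (9.03 and 8.63), EMILIN1, an elastic-fibre glycoprotein (6.89 and 8.09), and OGN, the small proteoglycan osteoglycin (5.83 and 7.51). POSTN, which encodes the matrix protein periostin, had no promoter peak in any library, yet all 14 HFF1 distal regions nearest to it were HFF1-only. It was singled out after its values were seen.

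Matrix-degrading enzymes and their inhibitors had 3 HFF1-only promoters among 22 (13.6%). MMP14, the membrane-bound collagenase, had folds of 9.15 and 8.80, MMP3, stromelysin-1, 7.57 and 7.84, and CTSK, the collagen-cleaving protease cathepsin K, 5.05 and 5.73. Of 38 surface and adhesion genes, all were open in both HFF1 libraries and 2 (5.26%) in HFF1 alone, FAP, fibroblast activation protein (8.00 and 7.34), and CDH13, T-cadherin (5.70 and 4.71). TAGLN, the actin-binding protein transgelin, was the only HFF1-only gene of 27 contractile ones (3.70%, close to the 2.08% of all genes), with folds of 7.49 and 7.98. GREM1, a secreted BMP antagonist, was the only one of 34 TGF-beta and BMP genes (2.94%, also close to that of all genes), with folds of 6.0 and 6.61. Of 35 growth factor genes, 2 (5.71%) were HFF1-only, IGFBP5, an insulin-like growth factor binding protein (2.85 and 3.17), and SFRP2, a secreted Wnt modulator (4.81 and 4.53). Neither IGFBP5 nor SFRP2 was HFF1-only after thinning.

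Cytokine and inflammatory genes had the highest HFF1-only count of the 10 lists with all peaks, 6 of 30 (20%, against 2.08% of all genes). After thinning they had 4 and other matrix genes 5. TNFAIP6, which encodes the hyaluronan-binding protein TSG-6 (chromosome 2, 151357592 to 151380046), had folds of 13.1 and 15.5. CCL7, a monocyte chemokine (chromosome 17, 34270221 to 34272242), had folds of 13.1 and 13.4. IL1B, interleukin 1 beta, had 6.97 and 6.99, and CCL11, eotaxin, 6.76 and 7.84. The other two, CCL2 (5.37 and 6.33) and the prostacyclin synthase gene PTGIS (8.85 and 4.80), fell below the rule for naming 4 genes per list. CCL2, CCL7 and CCL11 lie side by side on chromosome 17 from 34255274 to 34288334. Under both depth treatments CCL2, CCL7, IL1B and TNFAIP6 stayed HFF1-only, while CCL11 and PTGIS did not.

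The promoters of TNFAIP6 and CCL7 are shown because these genes had the highest folds of the list members open in HFF1 alone. The upstream sequences of COL6A3, IL1B and MMP14, which also held both HFF1 summits, had neither of the motifs marked here. Each line holds the 250 bases before the RefSeq start site (GRCh38.p14, plus strand, 5′ to 3′). Capitals mark the AP-1 letters TGAGTCA in TNFAIP6 and TATAAA in CCL7.
TNFAIP6 promoter, chr2:151357342-151357591: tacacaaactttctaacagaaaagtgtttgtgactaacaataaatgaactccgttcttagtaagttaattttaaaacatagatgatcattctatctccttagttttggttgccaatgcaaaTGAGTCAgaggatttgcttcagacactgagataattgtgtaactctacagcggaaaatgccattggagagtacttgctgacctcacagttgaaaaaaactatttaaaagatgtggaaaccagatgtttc
CCL7 promoter, chr17:34269971-34270220: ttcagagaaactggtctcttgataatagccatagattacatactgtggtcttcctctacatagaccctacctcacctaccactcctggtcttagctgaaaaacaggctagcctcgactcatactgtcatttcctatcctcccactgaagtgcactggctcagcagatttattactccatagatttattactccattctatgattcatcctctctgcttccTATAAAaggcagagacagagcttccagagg
In TNFAIP6 the AP-1 letters ran from position -129 to -123 relative to the start, and the HFF1 summits were at -115 and -100. In CCL7 the TATAAA letters ran from -30 to -25, with summits at -60 and -47. Over a window of the same 300 bases for every gene, 250 before and 50 after the canonical start on GRCh38, 8.82% of the HFF1-only promoters held TGAGTCA on either strand, against 3.53% of all genes, 4.51% of GM12878-only, 5.97% of K562-only and 0 of the HEK293T-only genes. TATAAA was in 18.6% of the HFF1-only promoters against 9.74% of all genes, 15.4% of GM12878-only, 18.4% of K562-only and 21.7% of HEK293T-only genes, and 26.6% of genes open in no library. CATCTG, an E-box, was in 19.6% of HFF1-only promoters, 10.9% of all genes, 20.7% of GM12878-only, 20.4% of K562-only and 10% of HEK293T-only genes. Among genes open in no library, TGAGTCA was in 5.70% and CATCTG in 17.9%. Such letters are matches and not shown to be bound.

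**Figure D2:**
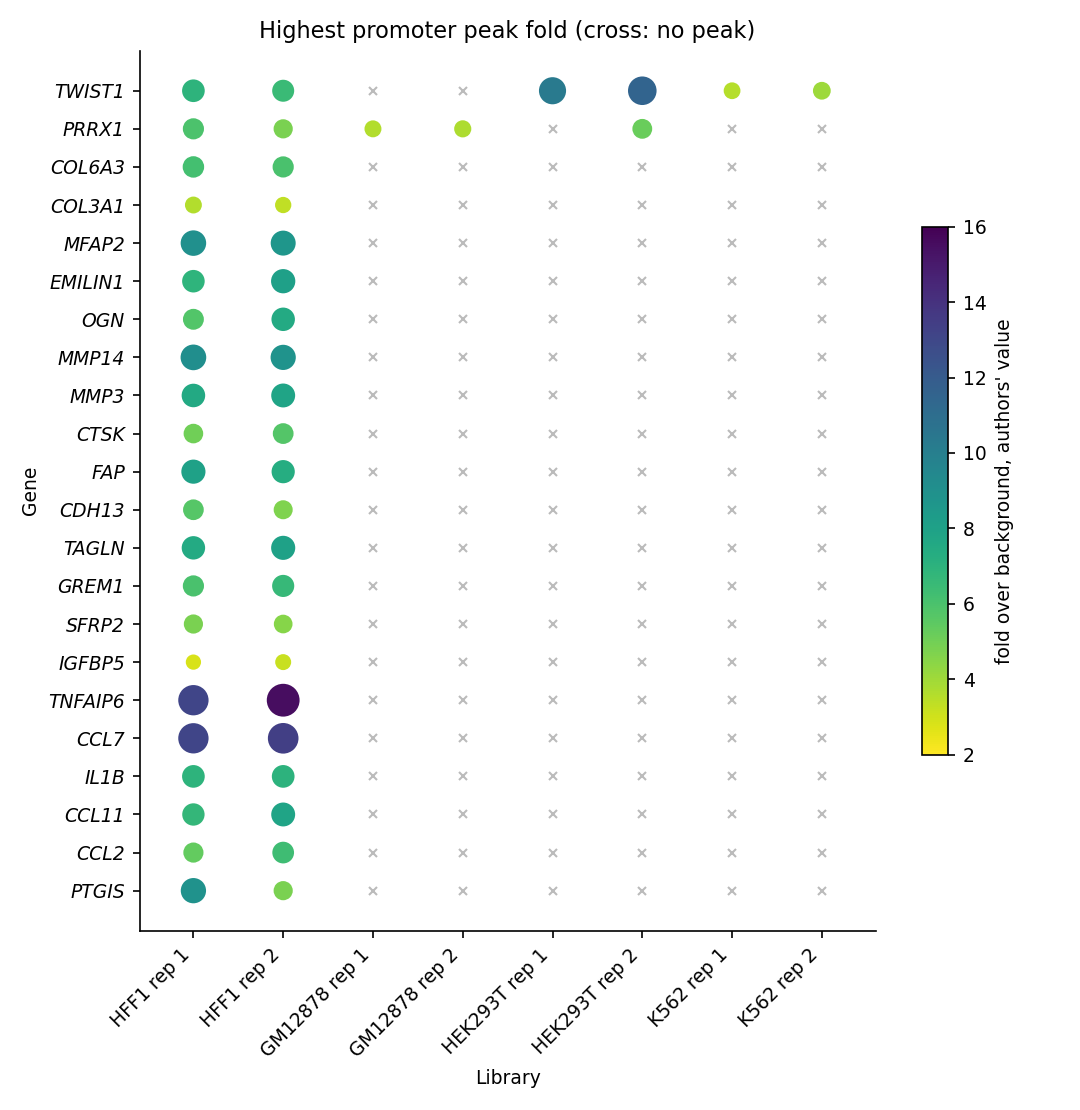
Each row is a gene (TWIST1 and PRRX1, then the 20 fibroblast-list genes open in HFF1 alone) and each column a library. Circle size and colour give the authors' fold of the highest promoter peak and a cross marks no peak. TNFAIP6 (13.1 and 15.5) and CCL7 (13.1 and 13.4) have the largest circles among the HFF1-only genes, and IGFBP5 (2.85 and 3.17) the smallest.

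Of 34 transcription factors of the mesenchyme, 31 were open in both HFF1 libraries, 14 in all 8 libraries and 0 in HFF1 alone. At 2.08% of all genes, a count of 0 in 34 is near the background, and 1 of them was HFF1-only with equal peak numbers. EN1, a homeobox factor of limb ectoderm and some dermal lineages, had no HFF1 peak but folds of 9.09 and 11 in HEK293T and 6.49 and 9.72 in K562, and was singled out after its values were seen. Of the 24 AP-1 and TEAD-YAP genes, 23 were open in both HFF1 libraries, 19 in all 8 and 0 in HFF1 alone. HOX genes, which record position along the body, had 3 HFF1-only members of 39 (7.69%), HOXD9 (5.97 and 6.36), HOXA7 (5.07 and 4.88) and HOXC11 (3.99 and 4.66). With equal peak numbers only HOXA7 stayed HFF1-only, and after thinning all 3 did. HOXB4 and HOXB7 had the reverse pattern, which HOXB7 kept in 2 and HOXB4 in 5 of the 7 settings tried for single genes. Among 18 oncofetal and stem cell genes, SALL4 (6.88 and 5.66) and POU5F1 (6.96 and 6.53) were HFF1-only (11.1%), and neither was with equal peak numbers. The POU5F1 peaks did not lie at its canonical start site.

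The strongest HFF1-only promoters were mostly not classical fibroblast genes. GDPD4, a glycerophosphodiester phosphodiesterase family gene (chromosome 11, 77216558 to 77301687), came first with folds of 15.8 and 16.4, followed by TMEM71 with 15.7 and 15.3. Zinc-finger genes held 3 places among the 10 strongest, ZNF454 (14.8 and 15.8), ZNF578 (13.3 and 14.4) and ZNF492 (14.6 and 13.1). PXDNL, a peroxidasin-like gene, had 14.5 and 14.3, the F-box gene FBXO47 13.8 and 13.7, and VWA3A 12.6 and 14.2. TNFAIP6 and CCL7 complete the 10. All 10 stayed HFF1-only with equal numbers and after thinning, GDPD4 and VWA3A were lost with a window of 2 kb, and GDPD4 was not at its canonical start site. Zinc-finger genes named ZNF were 11 of the 397, or 2.19% of all 503 of them, close to the 2.08% of all genes. Keratin and keratin-associated genes, which lie in clusters, were 13 of 149 (8.72%). KRTAP2-3, KRTAP2-4 and KRTAP4-8 formed a run of 3 members on chromosome 17, as did IRX2, IRX1 and ADAMTS16 on chromosome 5. These families and runs were picked after the values were seen.

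In the reverse class, the lowest of the 6 folds ranged from 2.84 to 13.9 with a median of 6.17. GLRA3, a glycine receptor subunit, had folds of 15.5 and 15.4 in GM12878, 15.3 and 15.7 in HEK293T and 14 and 13.9 in K562, and no peak in HFF1. ADAM29 lies beside it and shared its HEK293T and K562 peaks. NMNAT3, a mitochondrial NAD synthesis enzyme, had folds between 11.3 and 17.6 in the 6 libraries. VAV1, a guanine nucleotide exchange factor of blood cells, had folds between 9.30 and 12.0, HEK293T included. RYR2, the calcium-release channel of heart muscle, had 22.5 and 22 in GM12878, 23.7 and 22.5 in HEK293T and 9.98 and 8.43 in K562. MS4A6E, RAMACL, LNX1, DENND1C and PRSS51 made up the other 5 of the 10, with lowest folds from 7.92 to 9.55. Of the 10, 3 kept the reverse pattern when only the canonical start site was used. IKZF1, the lymphoid factor Ikaros, and PRAME, a cancer-testis antigen, were the other list genes of this class besides the HOX genes. IKZF1 had folds of 8.42 and 8.25 in GM12878, 5.91 and 4.31 in HEK293T and 3.80 and 3.77 in K562, and lost the pattern after thinning and at a −log10 q of at least 5. PRAME kept it in all 7 settings. Just outside this rule, 46 genes were open in 5 of the 6 and in no HFF1 library, and 43 were open in all 6 and in 1 HFF1 library, with a median HFF1 fold of 4.25.

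CpG content, which the rule did not use, was lower in the HFF1-only class than over all genes. The median observed over expected CpG ratio in the 2 kb around the canonical start was 0.306 (quartiles 0.209 and 0.586), against 0.640 for all genes and 0.701 for genes open in all 8 libraries. GM12878-only genes had a median of 0.233 and K562-only genes of 0.323, so a low ratio was common to these 3 line-only classes. HEK293T-only genes had 0.696 and the reverse class 0.511. Genes open in no library had 0.231, below the HFF1-only class. TNFAIP6 had a ratio of 0.176 and CCL7 of 0.0729, while IRX1 (0.913) and SFRP2 (0.728) were CpG-rich members. With equal numbers of peaks the HFF1-only median was 0.336. These medians were not tested.

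**Figure D3:**
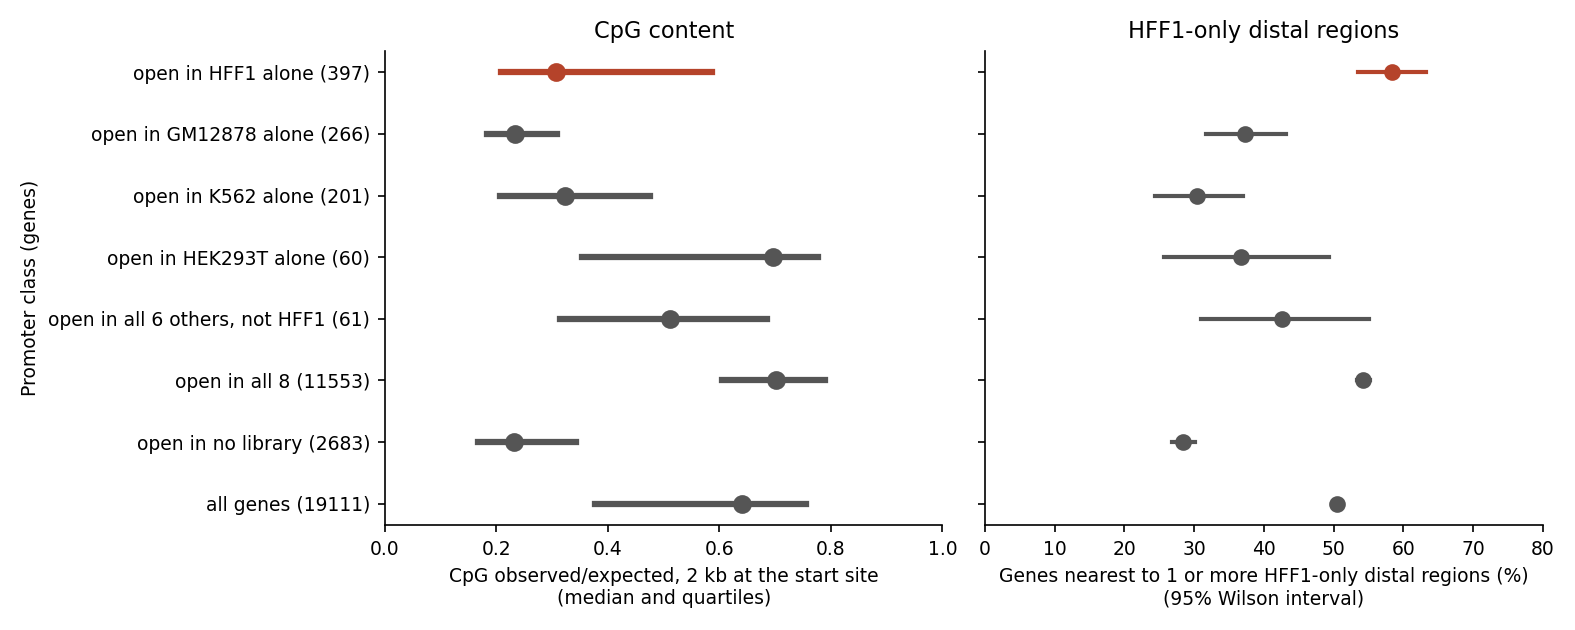
Left, median (point) and quartiles (bar) of the CpG ratio by promoter class. Right, share of genes in each class that are nearest gene of at least 1 HFF1-only distal region, with its 95% Wilson interval; the HFF1-only class has a median ratio of 0.306 and a share of 58.4%.

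The share of HFF1-only genes with an HFF1-only distal region nearby was close to that of genes open in all 8 libraries. Of the 397 HFF1-only genes, 232 (58.4%, 95% Wilson interval 53.5 to 63.2, counting error only) were the nearest gene of at least 1 HFF1-only distal region, against 50.4% of all genes. The share was 37.2% for GM12878-only, 30.3% for K562-only and 36.7% for HEK293T-only genes, and 42.6% for the reverse class (26 of 61, interval 31 to 55.1). Genes open in all 8 libraries had 54.3%, which lies inside the interval of the HFF1-only class, and genes open in no library had 28.4%. The HFF1-only share was 43.4% with equal peak numbers, where 31.3% of all genes had such a region. Genes are not replicates and these shares were not tested.

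Most genes of the fibroblast lists lay nearest to HFF1-only distal regions. Of their 310 genes, 267 (86.1%) were nearest to at least 1 HFF1-only distal region, against 50.4% of all genes. At least 5 such regions lay nearest to 183 of them (59.0% against 15.4%), and at least 10 to 118 (38.1% against 7.02%). These genes stand in wide gene-poor stretches, with a median of 0.149 Mb nearest to their start sites against 0.0543 Mb for all genes. The part of this width in the counts was not tested. The same lists therefore were read with the line-only regions of the other lines: at least 5 GM12878-only regions lay nearest to 16.5% of the 310 genes against 10.4% of all genes, at least 5 K562-only regions to 5.16% against 2.88%, and at least 5 HEK293T-only regions to 3.23% against 0.764%. As a share of regions, 71.8% of the 4300 HFF1 distal regions nearest to list genes were HFF1-only, against 58.7% of all. For GM12878-only regions that share was 43.8% against 47.6%, for K562 28.8% against 31.9%, and for HEK293T 18.6% against 15.1%. The HFF1-only regions nearest to list genes also lay farther from start sites, at a median of 45622 bp against 29041 bp for the rest, and the part of distance in the share was not tested. With equal peak numbers 26.1% of list genes had at least 5 HFF1-only regions against 4.82% of all genes, and after thinning 34.8% against 6.97%.

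By list, the share with at least 5 HFF1-only distal regions was 73.7% for surface and adhesion genes, 73.1% for collagens, 65.7% for growth factors, 65.0% for other matrix genes and 64.7% each for mesenchymal transcription factors and the TGF-beta and BMP pathway. Contractile genes had 51.9%, matrix-degrading enzymes 45.5%, AP-1 and TEAD-YAP genes 37.5% and cytokine genes 33.3%. Melanocyte markers had 33.3%, kidney and epithelial markers 27.3%, oncofetal genes 22.2%, B-cell markers 12.5%, keratinocyte markers 6.67%, erythroid and myeloid markers 4.00% and HOX genes 0. Endothelial markers had 53.8%, among them CDH5, nearest gene of 32 HFF1-only regions, which is the next gene to CDH11 on chromosome 16. The differences between lists were not tested. TBX3, with no HFF1-only promoter call because HEK293T and K562 were open too, had 50 HFF1-only distal regions. CXCL12, a stromal chemokine open in all 8 libraries, had 41 of 44 HFF1 distal regions unique to HFF1, and COL6A3 32 of 35.

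**Figure D4:**
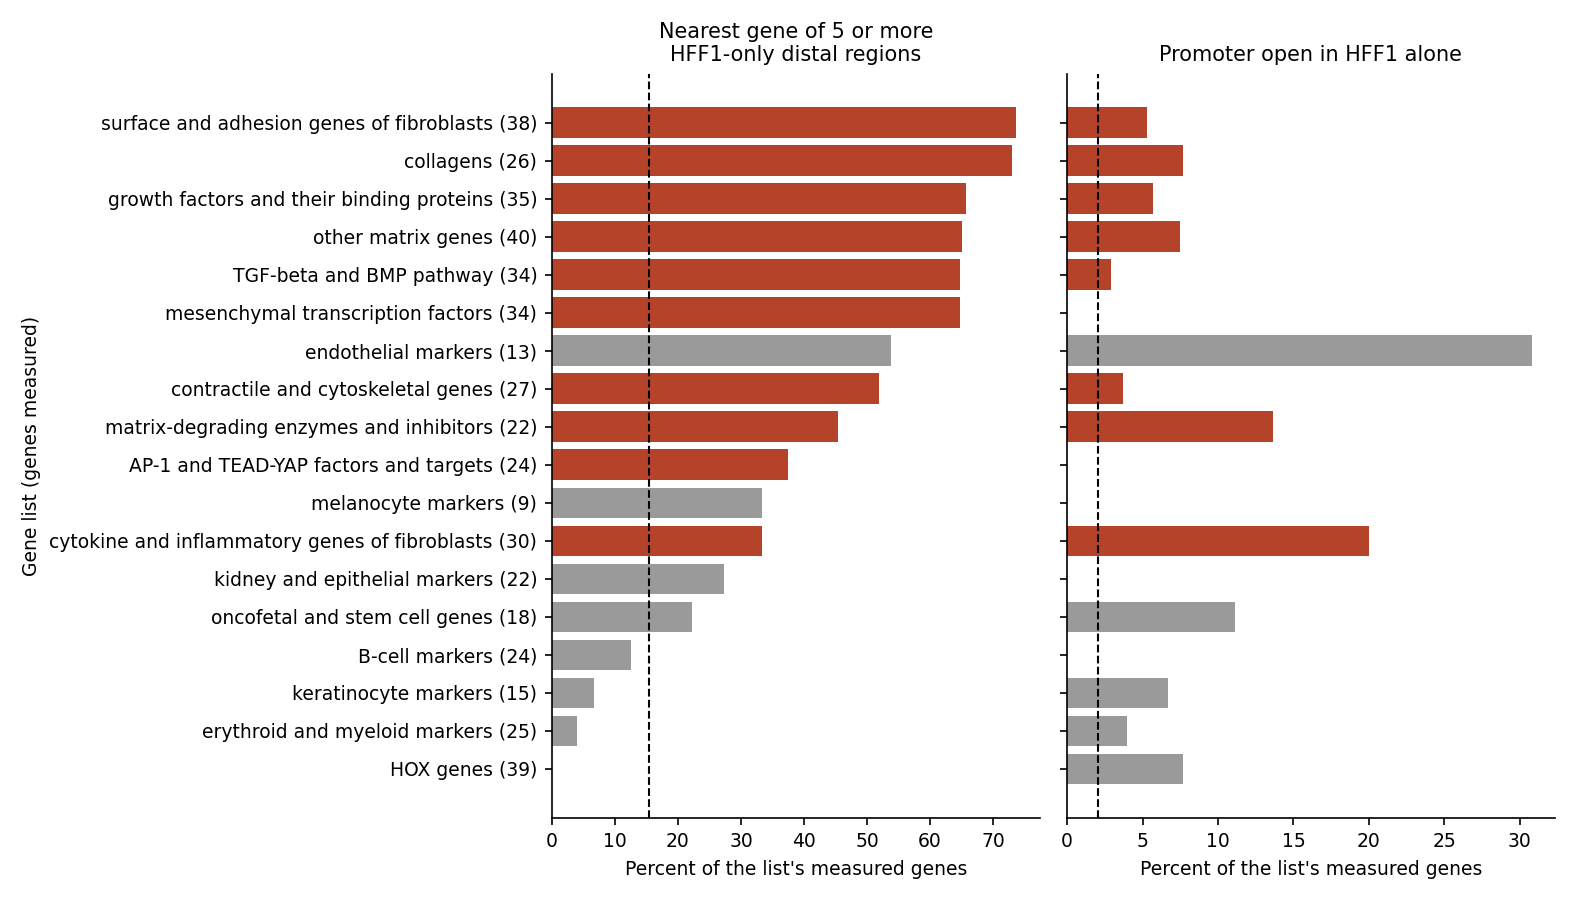
Bars give, for each of the 18 gene lists (number of measured genes in brackets), the percent of genes nearest to 5 or more HFF1-only distal regions (left) and the percent with a promoter open in HFF1 alone (right). Red bars are the 10 fibroblast lists, grey bars the others, and dashed lines the percent of all genes, 15.4 and 2.08; mesenchymal factors reach 64.7% on the left.

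The genes with most HFF1-only distal regions were CDH11, RUNX1 and TNS3. CDH11, a cadherin of mesenchymal cells (chromosome 16, 64943753 to 65126112), was nearest to 69 HFF1-only regions of 77 HFF1 distal regions. RUNX1, a transcription factor best known in blood, had 67 of 90, and TNS3, the focal-adhesion protein tensin 3, 60 of 84. MED13L, a Mediator kinase-module subunit, had 57 of 69, TNC, the matrix protein tenascin C, 54 of 62, and PAPPA, a protease of IGF-binding proteins, 53 of 57. TNC and PAPPA are neighbours on chromosome 9, and TBX3 (50 of 58) and MED13L on chromosome 12, so regions between them were divided by distance alone. CITED2, a transcriptional coregulator, had 49 of 64 and the deubiquitinase USP24 47 of 58. MYC, RND3, the teneurin TENM4 and ZNF608 tied at 46. Per megabase, TNC had the most of the 13, 82.7 regions, and the marker COL3A1 had 74.9. None of the 13 genes was open in HFF1 alone at its promoter. After thinning TNS3 ranked first with 33, TNC next with 29 and then RUNX1 with 28, and at equal peak number TNS3, with 24, and PAPPA, with 23, led. CDH11 ranked 13 after thinning and 33 with equal numbers, and the lowest ranks of the 13 genes were 46 for ZNF608 after thinning and 49 for USP24 with equal numbers.

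HFF1-only distal regions lay farther from start sites than shared ones. Their median distance to the nearest protein-coding start site was 29888 bp, against 17203 bp for the 9337 HFF1 distal regions shared with all 6 other libraries, and 51% against 41.1% lay inside a gene body. For the 23548 shared with 1 to 5 other libraries the median distance was 19975.5 bp. Of those, 50.4% lay inside a gene body, close to the HFF1-only share. These values were not tested. The median lower fold of the HFF1-only regions was 6.12, against 8.74 for those shared with all 6 and 6.86 for those shared with 1 to 5.

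Motif letters were counted within 50 bases of the summit of every distal peak of each library, not only of HFF1-only regions. AP-1 letters, TGAGTCA on either strand, were in 16.3% ± 0.0192 of HFF1 distal peaks (SD, n = 2), with 16.3% in each replicate, against 9.76% and 9.58% in K562, 8.46% and 8.35% in GM12878 and 4.00% and 3.95% in HEK293T. Windows 1 kb to each side held them in 1.60% to 1.65%. TEAD letters, ACATTCC, were in 2.93% and 3.01% of HFF1 peaks, against 1.57% and 1.52% in HEK293T, 1.16% and 1.14% in K562 and 0.632% and 0.619% in GM12878, with 1.3% to 1.35% in the flanks. C/EBP letters, TTGC, any 2 bases, AA, were in 8.66% ± 0.0257 in HFF1 and 3.52% to 5.21% elsewhere, against 4.71% to 5.13% in the flanks. The E-box CATCTG was in 16.6% ± 0.0325 in HFF1 and 9.04% to 9.98% elsewhere, against 6.76% to 7.06% in the flanks. For these 4 motifs both HFF1 libraries lay above all 6 others.

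The other 4 motifs did not share that order. RUNX letters, TGTGGTT, were in 4.25% and 4.19% of HFF1 peaks, below the 5.72% and 5.74% of GM12878 and above K562 (2.67% and 2.71%) and HEK293T (2.22% and 2.16%). GATA letters, AGATAAG, were in 0.867% and 0.811% of HFF1 peaks, the lowest of the 4 lines and below the flanks (1.27% to 1.44%). GM12878 had 1.02% and 0.998% and HEK293T 1.25% and 1.17%, also below the flanks, while K562 had 5.27% and 5.35%. The CTCF motif was in 3.74% ± 0.0704 in HFF1, below the 5.89% to 9.82% of the others. NFI letters, TTGGC, any 5 bases, GCCAA, were rare everywhere, at 0.0161% in HFF1 and 0.0190% to 0.0618% elsewhere. Each motif but RUNX gave a two-sided exact permutation p of 0.0714 (adjusted p = 0.0816 by Benjamini-Hochberg over 8 motifs), the smallest possible here, with the groups not overlapping, and RUNX gave an exact permutation p of 0.5 (adjusted p = 0.5). With equal peak numbers, or after subtracting the flanks, the exact permutation p for NFI was 0.143. No motif passed 0.05, which this design cannot reach. These p-values also treat the 2 libraries of a line as independent, whereas the comparison is of 1 line with 3 others.

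**Figure D5:**
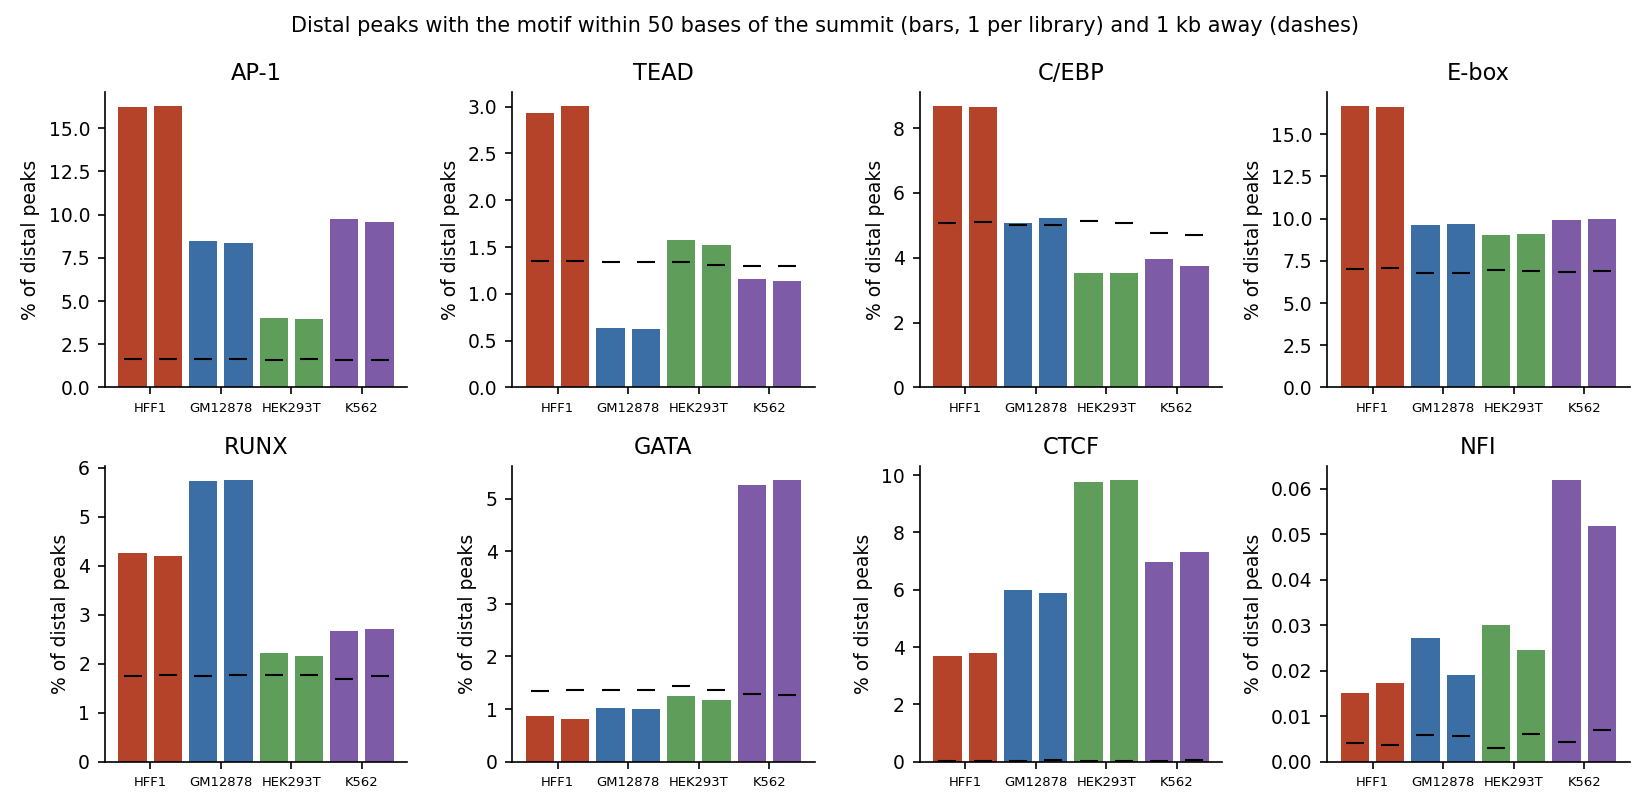
Each bar is the percent of distal peaks of 1 library with the motif letters within 50 bases of the summit, coloured by line, and each dash the same at windows 1 kb away. HFF1 bars are the highest for AP-1 (16.3%), TEAD, C/EBP and E-box and the lowest for GATA, CTCF and NFI.

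Within HFF1, the shares differed with how widely a region was shared. AP-1 letters were in 19.1% of the HFF1-only distal regions, in 19.5% of the 23548 shared with 1 to 5 other libraries and in 4.52% of those shared with all 6. E-box letters were in 20.3%, 13.6% and 10.4%, C/EBP letters in 10.8%, 6.80% and 3.81%, and TEAD letters in 3.94%, 1.97% and 0.932%. CTCF went the other way, with 0.139%, 6.34% and 19.4%. Ordered by fold and cut into 4 equal sets, HFF1-only regions held AP-1 letters in 12.3%, 17.7%, 19.8% and 26.6%, from the weakest set to the strongest, and the E-box share went from 17.2% to 23%. Regions nearest to the fibroblast lists did not stand out in letters: AP-1 was in 19.2% of the 3087 nearest to list genes and in 19.1% of the 43587 others, and TEAD in 3.76% and 3.95%.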

How the data were processed

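Bulk ATAC-seq peak lists of 8 human libraries (HFF1, GM12878, HEK293T and K562, 2 each) were used, and the 2 mouse libraries were not used here. The submitters' processing notes name cutadapt 3.2, Bowtie2 2.4.2, Picard, MACS2 2.2.7.1 and the build hg38. The authors deposited 1 narrowPeak list per library, so replicates were not pooled. Each deposited peak has a fold (a linear ratio over local background), a −log10 p, a −log10 q and a score, all the authors' own. Folds describe and order peaks, and no difference between lists was drawn from them. Every deposited list ended at a q near 0.01. Reads and read shifts were not analysed here.

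Peaks were joined to protein-coding start sites of GENCODE release 44 on GRCh38 with Python 3.11.15, numpy 2.4.6, scipy 1.17.1 and pysam 0.24.0, at an overlap of at least 1 bp. HFF1 peaks of both libraries were merged where they overlapped, and distal regions were assigned to the gene of the nearest start site. Pileups and backgrounds were solved from the fold and the −log10 p of each deposited peak, taken as a Poisson tail, for 99.9% to 100% of peaks. The 1st percentile of the background is the background level. For thinning, pileups were drawn binomially to the HEK293T level and kept at a −log10 p of at least 4.18. The counting steps were checked on simulated lists over 19111 genes, where 200 of 200 planted HFF1-only genes, 60 of 60 reverse genes and 2000 of 2000 distal regions were recovered. Planted peaks were present in every library of a line, at genes with separate windows and with no difference in depth. Recovery therefore checks the counting alone and not the effect of depth on the counts.

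Libraries were compared by two-sided exact permutation tests, with Benjamini-Hochberg adjustment over the 8 motifs. Named genes were the 3 markers, the 4 strongest members per list by the lower HFF1 fold (reverse class: lowest of 6), the 10 strongest of each class and the 10 genes with most HFF1-only distal regions, 13 with ties. Members and lists were chosen with earlier results of these data known. Promoter sequences come from a RefSeq table (GRCh38.p14) that held 264 of the 397 members, so motif shares were computed from the genome instead. Alternatives were equal peak numbers, thinning, a −log10 q of at least 5, windows of 500 bp and 2 kb, canonical start sites, summits in place of peaks, other rules for distal regions, other motif and CpG windows, a replicate block and leaving out each library. Matplotlib 3.10.9 drew the figures. Wilson intervals cover counting error only.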

Additional observations from a re-analysis of the deposited data

How the results depend on the processing

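The counts changed with the handling of depth and peak number. With equal numbers of peaks the HFF1-only genes numbered 221, the reverse class made up 1.24% of genes, and the HFF1-only distal regions numbered 15807, the difference in open genes turned to -86, and 43.4% of HFF1-only genes had a distal region. Thinned to the shallowest library, these were 241 genes, 0.528% of genes and 20997 regions. Without both HEK293T libraries, an alternative chosen after seeing the data, 678 genes were HFF1-only and 1.07% of genes had the reverse pattern. The median CpG ratio over the shorter window was 0.344. The cause of these shifts was not tested.

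Leaving out 1 library at a time gave 420 to 498 HFF1-only genes, 0.33% to 0.481% of genes in the reverse class (0.481% without HFF1 replicate 1), 47135 to 62198 distal regions, a difference of 1064 to 1224.2 open genes, a median CpG ratio of 0.302 to 0.319 and 57.9% to 63.7% of HFF1-only genes with a distal region (63.7% without HFF1 replicate 2). Leaving libraries out, here and for HEK293T above, only relaxes the rule, so the HFF1-only, reverse and distal counts could not fall. Their range is therefore no check of stability. All 8 motif differences kept their sign in each setting run, with AP-1 between 8.24 and 12.8 percentage points and TEAD between 1.77 and 2.86. The GATA difference was -1.10 without K562 replicate 2. The RUNX difference was 1.12 without either GM12878 replicate in turn, 0.405 without HEK293T replicate 2 and 0.416 without HEK293T replicate 1.

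Replicate differences at 11553 promoters correlated between lines at -0.00442 to 0.0226. Such correlations would miss a shift common to all promoters, so they cannot decide whether libraries of the same number were prepared together. The labels do not state this either. When libraries were permuted only within replicate numbers (a replicate block), the difference of 1150.5 open genes had an exact permutation p of 0.125, the smallest the block allows. The block gave the same p for the motif differences of 8.92 percentage points for AP-1, 1.86 for TEAD, 4.49 for C/EBP, 7.09 for E-box, -0.0196 for NFI, -1.67 for GATA and -3.88 for CTCF, and p = 0.5 by exact permutation for the 0.68 of RUNX.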

Other observations

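Further HFF1-only promoters outside the gene lists, picked after their values were seen, included some developmental regulators. TBX5, a T-box factor of forelimb and heart and a neighbour of TBX3 on chromosome 12, had promoter folds of 3.57 and 3.67 in HFF1 and no peak in the 6 other libraries. It was nearest gene of 20 HFF1-only distal regions of 21. IRX2 and IRX1, homeobox factors on chromosome 5, had folds of 5.12 and 5.60 and of 4.97 and 3.53. IRX1 had no HFF1 distal region nearest to it and IRX2 had 2, both HFF1-only. SCX, the tendon factor scleraxis, had folds of 4.08 and 4.10.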
